A study of Mus musculus with 6 samples.

Results

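Primary granule genes of early myeloid progenitors were examined in LSK cells (lineage marker negative, Sca1+, cKit+), the bone marrow fraction of neonatal mice that holds haematopoietic stem cells and multipotent progenitors. The 9 genes were Mpo, Elane, Prtn3, Ctsg, Lyz2, Srgn, Ms4a3, Nkg7 and Igsf6, each taken as every non-control probe on the array that carries its name. They were measured by 13 probes, among 20778 gene names and 32074 probes tested, and all 13 probes were well above background on all 6 arrays. The study hybridised 3 arrays of LSK RNA from control mice (Atg5w/w;VaviCre+) and 3 from mice in which both Atg5 alleles are floxed (Atg5f/f;VaviCre+, written Atg5f/f;Vav here), to learn how gene expression changes around the time when Atg5-deficient stem cells are damaged. Atg5 encodes a protein that autophagosomes need in order to form. All mice were C57BL/6, at postnatal day 6 to 8 (P6 to P8), and all carried the VaviCre transgene, whose Vav regulatory elements drive Cre throughout the haematopoietic system from the fetal stage on, so any effect of Cre itself is shared by both groups and the floxed allele is deleted in progenitors and mature blood cells alike. The sources used here do not say whether 1 array stands for 1 mouse or for pooled mice, and the tests below measure the spread between these arrays only.

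The values are log2 signals, the scanner's processed intensity of a probe relative to the 75th percentile of its own array, so that 0 marks a probe at that percentile and a step of 1 is a doubling. A difference is the mean of the arrays labelled Atg5f/f;Vav minus the control mean, tested with limma across all probes with Benjamini-Hochberg adjustment, and called where the adjusted p was under 0.05. The 75th percentile lay between 620.3 and 881.4 intensity units, between 57.6 and 58.2% of probes were well above background in control against 51.6 to 54.8% in the arrays labelled Atg5f/f;Vav, and no spot was saturated. All 6 arrays sat on 1 slide, with each group in its own row, so position and group cannot be told apart. The Atg5 probe read 1.10, 0.93 and 1.06 in control and 1.46, 1.51 and 1.74 in the arrays labelled Atg5f/f;Vav, higher by 0.54 (SE 0.12, limma adjusted p = 0.0209). Whether this probe, which starts at base 2251 of the transcript, lies inside the deleted part was not determined, so it does not check the labels, and each direction below rests on the labels as given. Among the genes that define the gate, Kit (control 4.02 ± 0.09, labelled Atg5f/f;Vav 3.64 ± 0.16, SD, n = 3 each) and Ly6a, which encodes Sca1 (1.47 ± 0.13 and 3.04 ± 0.23), were well above background on every array. This brightest Kit probe missed the threshold (-0.38, limma adjusted p = 0.0563), whereas the other Kit probes were called lower (-0.67 and -0.62, adjusted p = 0.0207 and 0.0230).

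Primary, or azurophil, granules are the first granules a developing neutrophil makes, at the promyelocyte stage, and their cargo is transcribed already in granulocyte-macrophage progenitors. The cargo includes a haem peroxidase and a family of serine proteases, which are made as inactive precursors, folded with the help of chaperones in the endoplasmic reticulum, trimmed by the protease cathepsin C and packed on the proteoglycan serglycin. Genes of the later, secondary and tertiary granules are switched on after the primary set has been switched off, which makes the 2 sets useful landmarks of neutrophil maturation.

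Elane and Prtn3 are neighbouring genes on mouse chromosome 10, and Ctsg on chromosome 14 and Mpo on chromosome 11 are the other cargo genes at the centre of the comparison. The 250 bases before their RefSeq start sites are shown because factors of granulocytic differentiation are known to act on these promoters, and because the neighbours Elane and Prtn3 gave different values below. Capitals mark matches, on either strand, to the letters GAGGAA (the core bound by PU.1), TGTGGT (RUNX), AACNG (MYB) and TTGCNNAA (C/EBP), with N for any base. No matches to different motifs overlapped in these stretches.
Elane, GRCm38.p6 chr10:79886062-79886311, plus strand: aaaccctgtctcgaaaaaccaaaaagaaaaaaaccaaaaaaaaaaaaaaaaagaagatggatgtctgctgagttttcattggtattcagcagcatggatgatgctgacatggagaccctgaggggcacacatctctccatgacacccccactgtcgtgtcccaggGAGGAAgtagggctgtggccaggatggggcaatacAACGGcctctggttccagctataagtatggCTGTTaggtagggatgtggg
Prtn3, GRCm38.p6 chr10:79879417-79879666, plus strand: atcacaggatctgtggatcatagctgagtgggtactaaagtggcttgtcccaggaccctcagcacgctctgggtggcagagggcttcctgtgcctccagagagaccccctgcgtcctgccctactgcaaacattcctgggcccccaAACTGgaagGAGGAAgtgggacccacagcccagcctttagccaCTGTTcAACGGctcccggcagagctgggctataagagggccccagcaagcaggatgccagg
Ctsg, GRCm38.p6 chr14:56102575-56102824, minus strand: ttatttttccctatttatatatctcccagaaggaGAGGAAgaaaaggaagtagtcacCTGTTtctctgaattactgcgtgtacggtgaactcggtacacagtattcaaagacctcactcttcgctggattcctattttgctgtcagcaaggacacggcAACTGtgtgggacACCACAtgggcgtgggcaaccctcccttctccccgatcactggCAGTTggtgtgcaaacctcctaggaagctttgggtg
Mpo, GRCm38.p6 chr11:87793534-87793783, plus strand: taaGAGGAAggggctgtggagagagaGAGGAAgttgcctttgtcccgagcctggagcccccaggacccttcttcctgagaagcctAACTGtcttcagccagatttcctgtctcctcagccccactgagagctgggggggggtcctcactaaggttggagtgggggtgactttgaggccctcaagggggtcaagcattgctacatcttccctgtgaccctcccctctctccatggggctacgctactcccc
The GAGGAA match lay 85 bases before the start of Elane and 95 bases before that of Prtn3, and in both it was followed by GT. The Mpo match 224 bases before the start was followed by GT too. In windows of 300 bases that reach 50 bases past the start, GAGGAA was found in 6 of the 9 genes (Mpo, Elane, Prtn3, Ctsg, Ms4a3 and Igsf6), against 28.3% of the 32851 promoter windows in the table. TGTGGT was found in 4 genes (Ctsg, Lyz2, Srgn and Nkg7) against 16.8% of windows, TTGCNNAA in 1 (Ms4a3) against 10.8%, and AACNG in 8 against 80.3%. A match is a description of letters and no evidence of binding.

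The array reads each transcript through probes of 60 bases. Of those, 3 are shown because they decide how far the peroxidase, protease and lysozyme values can be read as those of 1 gene. Each reads without a stop codon in 1 frame.
Mpo, probe starting at base 1687, mm9 chr11:87615121-87615180, plus strand: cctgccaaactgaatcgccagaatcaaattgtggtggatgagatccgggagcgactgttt
Prtn3, probe starting at base 330, mm9 chr10:79343869-79344685, plus strand: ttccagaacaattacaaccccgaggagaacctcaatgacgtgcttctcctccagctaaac
Lyz2, probe starting at base 94, mm9 chr10:116719175-116719234, minus strand: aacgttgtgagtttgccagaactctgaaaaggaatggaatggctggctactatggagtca
The Mpo and Lyz2 probes each fall in 1 exon, whereas the Prtn3 probe spans 817 genomic bases and so crosses an intron. Lyz2 has a close paralog, Lyz1, next to it on chromosome 10, and reads of either gene by the other's probe were not separated.

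Of the 9 genes, 3 were higher in the arrays labelled Atg5f/f;Vav (Ctsg, Mpo and Prtn3), 1 was lower (Lyz2) and 5 did not pass the test (Elane, Srgn, Ms4a3, Nkg7 and Igsf6). Over all genes tested, 18.7% were called higher and 15.3% lower. Counted by probe, 5 of the 13 were higher and 1 was lower, against 17.3% and 17.1% of all probes tested (34.4% in either direction). The difference was positive in 7 of the 9 genes, and its median was 0.61 against -0.03 over all genes tested. In either direction, 34.1% of all genes were called, so a call on a single granule gene is not unusual in this comparison.

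**Figure D1:**
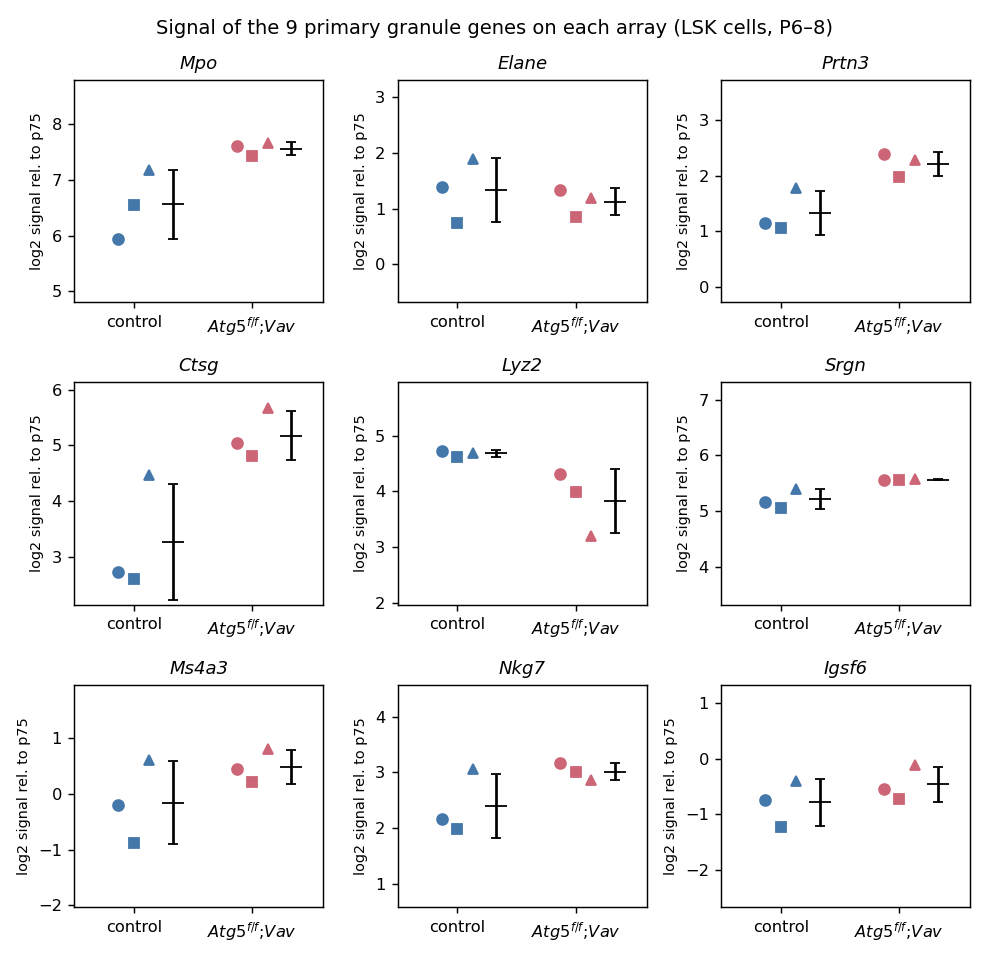
Log2 signal relative to the 75th percentile of the array (y axis, 4 units in every panel) for the brightest probe of each of the 9 genes, by group (x axis). Each point is 1 array (circle, square and triangle for replicates 1, 2 and 3) and the bar is the mean ± SD (n = 3). Ctsg, Mpo, Prtn3 and Srgn do not overlap between groups and are higher in the arrays labelled Atg5f/f;Vav, Lyz2 does not overlap and is lower, and control replicate 3 is the highest control array in 8 of 9 panels.

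Mpo encodes myeloperoxidase, the haem enzyme that makes hypochlorous acid from hydrogen peroxide and gives the granules their green colour. Its brightest probe read 5.95, 6.55 and 7.19 in control and 7.61, 7.43 and 7.66 in the arrays labelled Atg5f/f;Vav. Every array labelled Atg5f/f;Vav lay above every control array, and the spread was wider in control (SD 0.62) than in the other group (SD 0.12). The difference was 1.003 (SE 0.29, limma adjusted p = 0.0391), a 2.004-fold higher mean. A dimmer probe in another exon, the one printed above, read 1.87, 2.32 and 3.20 against 3.90, 3.40 and 3.81 and gave 1.24 (SE 0.33, adjusted p = 0.0312). Both Mpo probes thus gave the same direction and the same order of the control arrays.

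Ctsg, Prtn3 and Elane encode the granule serine proteases cathepsin G, proteinase 3 and neutrophil elastase. Ctsg had the largest difference of the 9 genes. It read 2.72, 2.60 and 4.46 in control and 5.04, 4.81 and 5.67 in the arrays labelled Atg5f/f;Vav. Control replicate 3 stood 1.20 above its group mean and close to the other group, though the groups did not overlap. The difference was 1.91 (SE 0.51, limma adjusted p = 0.0301), a 3.76-fold higher mean, and its 95% interval ran from 0.71 to 3.11. Prtn3 read 1.15, 1.05 and 1.79 in control and 2.39, 1.97 and 2.28 in the arrays labelled Atg5f/f;Vav. The groups again did not overlap, with a difference of 0.89 (SE 0.22, adjusted p = 0.0258). Elane read 1.38, 0.74 and 1.90 in control against 1.33, 0.85 and 1.19, and the arrays labelled Atg5f/f;Vav all fell inside the control range. Its difference of -0.21 (SE 0.29) did not pass the test (adjusted p = 0.589), and the upper end of its 95% interval (-0.91 to 0.48) lay below the estimates for Prtn3 and Ctsg, though it overlapped the interval of Prtn3 (0.36 to 1.41).

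Lyz2 encodes lysozyme, which cleaves bacterial cell walls and, unlike the proteases, goes on being made in later neutrophil stages and in macrophages. Its brightest probe read 4.73, 4.61 and 4.70 in control and 4.30, 3.98 and 3.19 in the arrays labelled Atg5f/f;Vav. The control arrays lay within 1 narrow band (SD 0.06), all above the other group, in which replicate 3 was lowest. The difference was -0.86 (SE 0.27, limma adjusted p = 0.0484), a mean 1.81-fold lower in the arrays labelled Atg5f/f;Vav. The printed Lyz2 probe read -0.60, -0.91 and -0.73 against -0.48, -1.15 and -2.14, and its difference of -0.51 (SE 0.39) did not pass the test (adjusted p = 0.326). The probe of the paralog Lyz1 read 2.26, 2.14 and 2.27 against 1.84, 1.52 and 0.75, a difference of -0.85 (SE 0.27, adjusted p = 0.0471). The 3 lysozyme probes thus shared their direction and their lowest array, and only the printed one overlapped between groups.

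Srgn encodes serglycin, the proteoglycan core on which positively charged granule proteins are stored. Its brightest probe read 5.17, 5.06 and 5.40 in control and 5.55, 5.56 and 5.57 in the arrays labelled Atg5f/f;Vav. The groups did not overlap, yet the difference was small, 0.35 (SE 0.12), and missed the threshold (limma adjusted p = 0.0639). A probe at base 227 gave 0.35 (SE 0.10) and passed (adjusted p = 0.0411), whereas a probe at base 339 gave -0.18 (SE 0.15, adjusted p = 0.394). Each of the 3 probes was drawn from a different transcript model. Both further probes were far dimmer (mean -2.10 at base 227 and -2.94 at base 339, against 5.39 for the brightest). The 95% interval of the probe at base 339 (-0.54 to 0.19) spanned 0. The Srgn estimates therefore differed in sign without a called opposite direction, and after quantile normalization the brightest probe turned to -0.01.

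Ms4a3, Nkg7 and Igsf6 encode membrane proteins. Ms4a3 belongs to the family of CD20 and marks cells committed to the granulocyte-monocyte lineage, Nkg7 is a granule membrane protein best known from cytotoxic lymphocytes, and Igsf6 is an immunoglobulin-superfamily receptor of myeloid cells. Ms4a3 read -0.19, -0.87 and 0.60 in control against 0.45, 0.21 and 0.80, Nkg7 read 2.15, 1.99 and 3.06 against 3.16, 3.01 and 2.87, and Igsf6 read -0.73, -1.22 and -0.39 against -0.54, -0.72 and -0.11. In all 3, control replicate 3 was the control array that reached into the range of the other group. Their differences of 0.64 (SE 0.36), 0.61 (SE 0.28) and 0.33 (SE 0.25) did not pass the test (adjusted p = 0.200, 0.124 and 0.332).

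**Figure D2:**
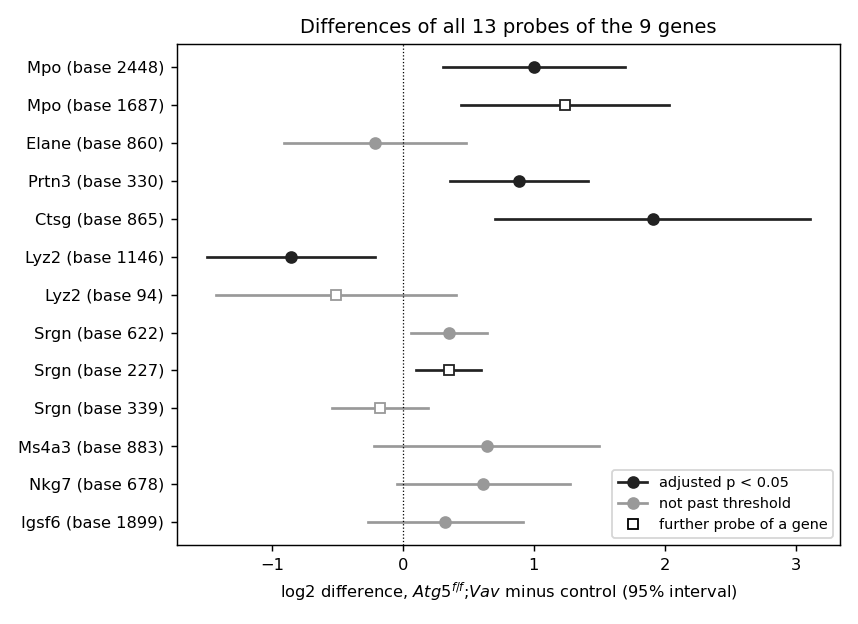
Difference in log2 signal (x axis, arrays labelled Atg5f/f;Vav minus control, 3 arrays each) for all 13 probes of the 9 genes, named by gene and by the base of the transcript at which the probe starts (y axis). Points are limma estimates with 95% intervals, black where the adjusted p was under 0.05, and open squares are further probes of a gene. Ctsg, Prtn3 and both Mpo probes lie to the right of 0, the 1146 probe of Lyz2 to the left, and the Elane interval spans 0.

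The control arrays differed among themselves in a way the 9 genes shared. Control replicate 3 lay above the control mean in 9 of 9 genes, control replicate 2 in 0 of 9 and control replicate 1 in 3 of 9. The mean log2 signal of the 9 genes was 2.48, 2.28 and 3.19 in control and 3.26, 3.01 and 3.24 in the arrays labelled Atg5f/f;Vav, so on this mean the groups overlapped, with control replicate 3 above replicate 2 of the other group. For Lyz2 the deviation of control replicate 3 was only 0.02, and the median over all genes tested was also 0.02. Other genes set this array apart too. The summed signal on control replicates 1, 2 and 3 was 251, 262 and 279 for the progenitor list below. For the erythroid list it was 731, 670 and 357. Across probes, control replicate 3 correlated with the other group at 0.985, 0.982 and 0.962, and control replicate 1 at 0.978, 0.978 and 0.955. Whether a difference of the whole array adds to the shared deviation was not tested, since each array was scaled to its own 75th percentile. Because these are bulk samples, fewer cells of a type and less RNA per cell cannot be told apart.

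The calls depended on which arrays were in the comparison. Without control replicate 3, 6 genes passed (Mpo, Prtn3, Ctsg, Srgn, Ms4a3 and Nkg7, all higher), Lyz2 did not (limma adjusted p = 0.106), and the median difference rose from 0.61 to 0.94. In that comparison the other progenitor genes described below had 13 called higher and 0 lower, and the late neutrophil markers 1 higher and 5 lower. Without control replicate 1 or without control replicate 2, 0 of 9 genes passed with limma, though 4 (Mpo, Prtn3, Ctsg and Lyz2) had an unadjusted p under 0.05 each time, and the number of probes called over the whole array fell from 11024 to 330 and 251. Without replicate 1, 2 or 3 of the arrays labelled Atg5f/f;Vav, 1, 2 and 2 genes passed. Over the comparisons that left out 1 array, the number of probes called over the whole array ranged from 251 to 10304, so these counts have no common background. The directions of Mpo, Prtn3, Ctsg and Lyz2 were the same in each of these 6 comparisons, while Elane turned from -0.21 to 0.07 without control replicate 3. An exact 2-sided permutation test over the 20 arrangements of the arrays cannot go below p = 0.1, the value it gave for Mpo, Prtn3, Ctsg, Srgn and Lyz2, which are the 5 genes whose groups did not overlap. Of these, 4 were higher and 1 lower, where 29.6% of all genes tested did not overlap and were higher, 26.3% did not overlap and were lower, and 55.9% did either.

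Ratios between genes on the same array do not depend on how arrays are scaled against each other, although a ratio of 2 probes is no ratio of transcripts. The log2 ratio of Elane to Prtn3 was 0.24, -0.32 and 0.11 in control and -1.06, -1.12 and -1.09 in the arrays labelled Atg5f/f;Vav. It did not overlap between groups and moved by -1.10, with almost no spread (SD 0.03) in the second group. Of the 36 pairs of the 9 genes, 21 had a ratio that did not overlap between groups, so a pair without overlap is not unusual here. The ratio of Elane to Ctsg moved by -2.12, from -1.33, -1.86 and -2.57 to -3.71, -3.96 and -4.48. Measured against the mean of the 9 genes, Ctsg moved by 1.39, Mpo by 0.48 and Prtn3 by 0.37, each without overlap between groups, whereas Lyz2 moved by -1.37 and Elane by -0.73, also without overlap. Srgn, Ms4a3, Nkg7 and Igsf6 overlapped on this measure. These ratios are a description without a test, and ratios to the genes' own mean must fall on both sides of 0.

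**Figure D3:**
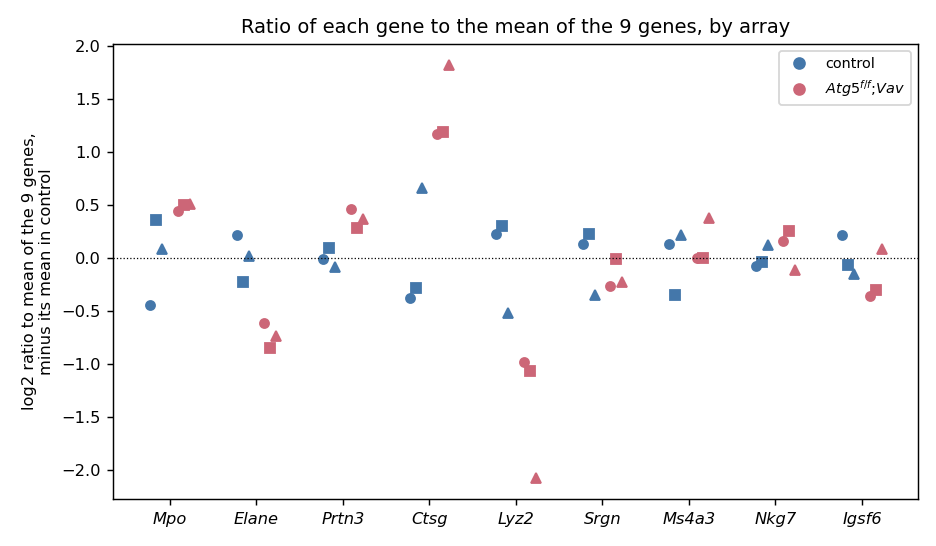
Log2 ratio of each gene to the mean of the 9 genes on the same array, minus the control mean of that ratio (y axis), for the 9 genes (x axis). Each point is 1 array (circle, square and triangle for replicates 1, 2 and 3). Ctsg, Mpo and Prtn3 lie higher and Elane and Lyz2 lower in the arrays labelled Atg5f/f;Vav, without overlap, and the other 4 genes overlap.

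The genes next to these loci gave values of their own. Ptbp1, upstream of Prtn3 and coding for a splicing regulator, was higher by 0.52 (SE 0.13, limma adjusted p = 0.0289), and Med16, a Mediator subunit on the far side of Elane, gave -0.08 (adjusted p = 0.670). The 3 genes after Mpo gave -0.22 for Lpo (lactoperoxidase), -0.24 for Mks1 and 0.55 for Epx (eosinophil peroxidase), and none passed the test. Beside Ctsg lie other granule protease genes. Mcpt8, a basophil protease, read -0.29, -0.86 and 0.50 in control against 0.46, 0.35 and 0.80, a difference of 0.76 that did not pass (adjusted p = 0.113), and Mcpt4, a mast cell chymase, read 2.70, 2.38 and 3.84 against 1.75, 1.89 and -0.58, a difference of -1.95 (SE 0.70) that missed the threshold (adjusted p = 0.0687). Only 2 of the 6 neighbours of Ctsg were measured. Neither was called, though Mcpt4 did not overlap between groups and was lower, so a contrast with Ctsg is not settled.

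Of 13 measured genes for other proteins of the azurophil granule, 1 was higher and 1 lower, against 18.7% and 15.3% of all genes tested, and the median difference was 0.02. The gene called higher was Ctsd, the lysosomal aspartic protease cathepsin D (0.57, SE 0.14, limma adjusted p = 0.0262), and the one called lower was Lyz1. Prss57, a serine protease of the same granule, read -1.51, -1.85 and -1.14 in control against -0.92, -1.20 and -1.36, which overlapped (difference 0.34, adjusted p = 0.231). Bpi, the bactericidal permeability-increasing protein, was not well above background on any array. Without control replicate 1, control replicate 2 or replicate 2 of the arrays labelled Atg5f/f;Vav, 0 of these genes passed with limma (2, 2 and 4 had an unadjusted p under 0.05).

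Of 18 measured genes for maturation, sorting and release of granule proteins, 8 were higher and 10 were not called, with a median of 0.28. The shares over all genes tested were 18.7% higher and 15.3% lower. Calr, the calreticulin chaperone that binds the myeloperoxidase precursor, read 3.73, 3.62 and 3.95 in control against 4.33, 4.43 and 4.77 (difference 0.74, SE 0.16, adjusted p = 0.0188). Its partner calnexin, Canx, gave 0.71 (adjusted p = 0.0166), and Ap3s1, a subunit of the AP-3 adaptor that sorts cargo to lysosome-related organelles, gave 1.42 (SE 0.27, adjusted p = 0.0166). Ctsc, the cathepsin C that activates the serine proteases, read 0.46, 0.30 and 0.52 against 0.63, 0.46 and 0.50 on its brightest probe, which overlapped (0.10, adjusted p = 0.501). Its other probes gave -0.46 (adjusted p = 0.118) and -0.95 (adjusted p = 0.0172), so the Ctsc probes disagreed. They were dimmer, with means of -2.44 and -3.57 against 0.48 for the brightest. The activating protease thus had no settled direction. Leaving out control replicate 1 or 2, 0 of the 18 genes passed with limma (8 had an unadjusted p under 0.05 each time).

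Genes listed as protease inhibitors, some of them inhibitors of cysteine rather than serine proteases, were called in both directions. Of 10 measured genes, 3 were higher and 3 lower, against 18.7% and 15.3% of all genes tested. The serpin genes Serpina3f (1.94, SE 0.13, limma adjusted p = 0.00327) and Serpina3g (1.24, adjusted p = 0.00862) and the cystatin F gene Cst7, whose product inhibits cathepsin C, were higher. Cst7 read 0.17, 0.59 and 1.11 in control against 1.97, 1.84 and 2.06, a difference of 1.33 (SE 0.23, adjusted p = 0.0155) without overlap. The 3 stefin genes, cysteine protease inhibitors abundant in maturing neutrophils, were lower (Stfa1 by -1.36, Stfa2 by -1.57 and Stfa3 by -1.49). Serpinb1a, the main inhibitor of elastase, proteinase 3 and cathepsin G in neutrophils, overlapped between groups (0.34, adjusted p = 0.200). Without control replicate 1, 3 of the 10 genes passed, and without control replicate 2, 2 did.

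Of 9 transcription factors known to act on granule genes, 3 were higher and 6 were not called, where 18.7% of all genes tested were called higher. Cebpa, which directs entry into the granulocyte-monocyte lineage, read -1.62, -1.47 and -0.95 in control against -0.19, -0.66 and -0.47, a difference of 0.91 (SE 0.21, adjusted p = 0.0214). Irf8, which favours monocytes over granulocytes, was higher by 1.49 (SE 0.31, adjusted p = 0.0179), and Cebpb by 0.62 (adjusted p = 0.0174). Cebpe, which drives secondary granule genes, read 1.002, 0.11 and 0.93 against 0.79, -0.16 and -0.04, with overlap (-0.48, adjusted p = 0.275). Gfi1, a repressor needed in neutrophil differentiation, read 3.29, 3.32 and 3.32 against 3.13, 2.70 and 1.80, without overlap but short of the threshold (-0.76, adjusted p = 0.0969), and Spi1, which encodes PU.1, gave -0.05 (adjusted p = 0.830). When control replicate 1 or 2 was left out, 0 of the 9 factors passed with limma (3 and 4 had an unadjusted p under 0.05).

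Of 22 other genes of granulocyte-macrophage progenitors, 10 were higher, 2 lower and 10 not called, with a median of 0.58. Here and for the late markers below, the shares over all genes tested were 18.7% higher and 15.3% lower. Ly86 (1.79, SE 0.39, limma adjusted p = 0.0196) and Plac8 (1.48, adjusted p = 0.0152) were among those called higher, and Fcnb, a ficolin (-0.96, adjusted p = 0.0277), and Sirpa (-0.62, adjusted p = 0.0415) were lower. Of 11 measured late neutrophil markers, not all of which encode granule cargo, 9 were lower and 1 was higher, with a median of -1.34. Ltf (lactoferrin) read 2.10, 0.93 and 1.45 in control against 0.42, 0.15 and -0.23, a difference of -1.38 (adjusted p = 0.0206). Camp, the cathelicidin, gave -1.29 (adjusted p = 0.0377), Ngp -1.21 (adjusted p = 0.0354), S100a8 -1.38 (adjusted p = 0.0252), Mmp8 -1.61 (adjusted p = 0.0267) and Retnlg -2.12 (adjusted p = 0.0167). Ly6g, the exception, was higher by 0.71 (adjusted p = 0.0149), and Cd177 was not well above background on any array. Control replicate 3 was the highest control array for 8 of the 9 primary granule genes, whereas the summed signal of the late neutrophil markers was 170, 81.5 and 130 times the 75th percentile on control replicates 1, 2 and 3, and 69.4, 40.6 and 39.4 times in the arrays labelled Atg5f/f;Vav. Without control replicate 1, 0 of the progenitor genes and 0 of the late neutrophil markers passed with limma (13 and 10 had an unadjusted p under 0.05), without control replicate 2, 0 and 2 did (13 and 10), and without control replicate 3, 13 and 6 did. Without replicate 2 of the arrays labelled Atg5f/f;Vav, 5 late neutrophil markers passed.

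**Figure D4:**
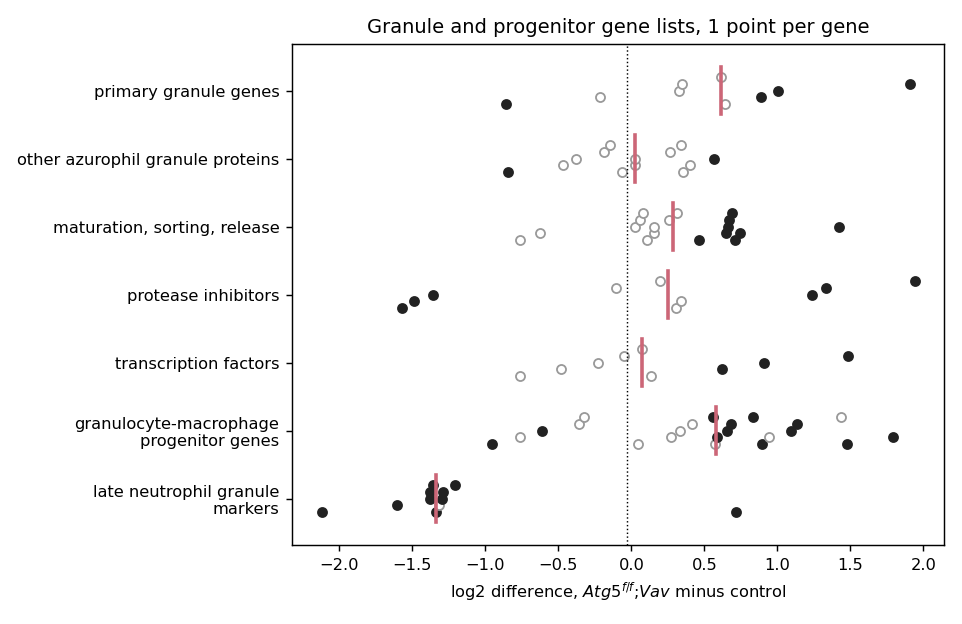
Difference in log2 signal (x axis, arrays labelled Atg5f/f;Vav minus control, 3 arrays each) for the genes of 7 lists (y axis), 1 point per gene. Filled points had an adjusted p under 0.05, the red bar is the median of the list and the dotted line is the median over all genes tested. The primary granule and progenitor lists have medians of 0.61 and 0.58, and the late neutrophil list has a median of -1.34.

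Markers of other cells in or near the gate are given next, where 18.7% of all genes tested were called higher and 15.3% lower. The T and NK cell list (22.2% higher) and the B cell list (12.5% higher) lay near the first share. The antibody mixture used at this age left out Mac-1, and its gene Itgam read 5.24, 4.98 and 4.62 in control against 4.01, 4.63 and 4.33, a difference of -0.62 that did not pass (limma adjusted p = 0.0618). Erythroid markers had 4 of 10 genes higher (Car1 by 3.80, Gata1 by 3.001, Klf1 by 2.95 and Epor) and 4 lower (Slc4a1 by -2.29, Hba-a1 by -2.26, Alas2 by -2.07 and Hbb-bt), and their summed signal ranged from 357 to 731 in control and from 160 to 239 in the arrays labelled Atg5f/f;Vav. Stromal markers had 3 of 6 lower, with Col1a2 by -3.70 and Sparc by -2.59, and their sum was 9.67 on control replicate 1, 39.8 and 29.8 on control replicates 2 and 3, and 5.38 to 8.63 in the other group, with Col3a1 not well above background on any array. Macrophage markers had 3 of 9 higher (Cx3cr1 by 1.61, Ccr2 by 0.97 and Ctss by 0.60) and 2 lower (Cd5l by -1.95 and Vcam1 by -1.42), with sums of 5.76 to 6.34 and 7.44 to 9.44, and the listed marker Mrc1 was not well above background on any array. Mast cell, basophil and eosinophil markers had 1 of 10 higher (Ms4a2 by 2.96) and 3 lower (Cma1 by -2.01, Prss34 by -1.25 and Tpsb2 by -1.06), with sums of 10.7 to 24.8 and 9.94 to 14.4. T and NK cell markers had 2 of 9 higher (Ccl5 by 1.26, and Gzmb), with sums of 4.07 to 5.11 and 5.95 to 6.47, and Cd3g, Cd8a and Ncr1 were not well above background on any array. B cell markers had 1 of 8 higher (Cd79a), with sums of 9.26 to 12.4 and 10.7 to 17.9. LSK and stem cell markers had 1 of 9 higher (Ly6a by 1.57) and 3 lower (Mecom by -1.75, Hlf by -1.65 and Procr by -1.56), with sums of 141 to 148 and 83.5 to 143. Without control replicate 1 or 2, the erythroid and B cell lists lost all calls with limma (8 and 2 genes had an unadjusted p under 0.05) and the macrophage, mast cell and LSK lists had 1 call each, and the stromal list lost all calls without control replicate 2, control replicate 3 or replicate 2 of the arrays labelled Atg5f/f;Vav (3, 2 and 3). The part of these shifts in the values of the 9 granule genes was not tested. Each sum here and above adds linear signals, so it mostly follows the brightest genes of its list. Examples are Hba-a1 (control mean 8.49) for the erythroid and Ctss (control mean 2.14) for the macrophage markers.

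The genes whose pattern was most like that of the 9 genes were sought among 9837 probes that spanned at least 1 log2 unit over the arrays. Over the 6 arrays, the closest to the mean log2 signal of the 9 genes were Ddx19a (Pearson r = 0.991), Gna12 (0.980), Gmppa (0.975), Lat2 (0.974) and Vps52 (0.972), and 111 probes had r of at least 0.9. Ddx19a read -1.97, -2.10 and -1.16 in control against -1.07, -1.28 and -0.95, with the same high control replicate 3 and a difference of 0.64 that did not pass (limma adjusted p = 0.0885). With 6 points that share the group difference, these correlations are a description only.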

How the data were processed

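RNA of LSK cells was labelled with Cy3 and hybridised to 1-colour Agilent arrays, 3 per group. The authors deposited the scanner output of Agilent Feature Extraction 12.0.3.1, in which the processed signal is a background-subtracted intensity per spot, and a series table of signal values that, tested on the files, equals the intensity divided by each array's own 75th percentile over all spots. Genome positions of probes are those of the files (mm9).

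From these, log2 intensity minus the array's 75th percentile over 59305 non-control spots was computed, outlier spots were left out and spots of a probe were averaged. A probe entered the test if 3 or more of the 6 arrays showed it well above background. The test was limma 3.58.1 (R 4.3.3) with Benjamini-Hochberg adjustment at 0.05. It was also run on simulated data with independent noise per probe and array. That setting holds no deviation shared across an array, so it does not vouch for the calls here. A gene was represented by its probe with the highest mean signal. The number of arrays limits the precision. Groups came from the labels. Replicate numbers did not pair the samples (correlations of deviations of -0.0654, 0.189 and 0.111). The 9 genes and all lists were chosen with earlier results of these data known. From each other list the text names at most 3 genes per direction with the largest called difference, fixed partners and gate genes, measured neighbours of Mpo, Elane, Prtn3 and Ctsg within 3 genes and the 5 most alike genes, and genes named outside this rule (Hbb-bt, Epor, Gzmb, Cd79a, Bpi and other dim markers) were chosen after their values were seen. The values of 1 gene that the rule named are not reported here. Promoters are from RefSeq (GRCm38.p6), which held windows for all 9 genes. A comparison of protein sequences was not run. Alternatives covered background correction, scaling, filters, probe choice, the methods' t-test, a replicate block and leaving out each array. Figures were drawn with matplotlib 3.10.9.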

Additional observations from a re-analysis of the deposited data

How the results depend on the processing

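Of the 9 genes, 4 were called in the comparison as reported, 5 with normexp background correction and with an intensity trend in the moderated variance, 4 with outlier spots kept and among probes above background on all 6 arrays, 3 each with the deposited values, with the percentile taken over probes detected on all arrays and with the mean of a gene's probes, and 2 after quantile normalization (Prtn3 and Lyz2). The background moved as well. Of 32074 probes, 11024 were called as reported and 11517 with normexp background correction. The deposited values gave 10984, the percentile over detected probes 13459 and quantile normalization 8419. With no filter on dim probes 0 passed with limma (5 had an unadjusted p under 0.05) and probes called fell from 11024 to 4538. The methods' t-test gave 3 of 9 genes and 13539 probes at an unadjusted p under 0.05, and 0 of 9 and 0 probes after Benjamini-Hochberg. Leaving out 1 array gave 0 to 6 genes, 251 to 10304 probes and a median difference of 0.28 to 0.94. Directions turned for Srgn after quantile normalization (-0.0144, and 0.1064 for its probe at base 339), for Ctsc with the percentile over detected probes (-0.102) and with the mean of its probes (-0.4368), and for Elane without control replicate 3 (0.0656, with a range of -0.5137 to 0.0656 over the comparisons that left out 1 array). The percentile over detected probes shifted the median of all genes from -0.03 to -0.24. It shifted the share of higher among called probes from 50.3% to 25%. Relative to the median of all genes, 7 of 9 genes were higher as reported, after quantile normalization and with normexp background correction. The deposited values and the percentile over detected probes shift all genes of an array alike, so there this count could not differ from the reported one. A fit with the replicate number as a block gave 3 genes, with Lyz2 lost (adjusted p = 0.0616), and 10173 probes; the numbers are not a pairing. The causes were not tested. Probes near background carry bounds, not levels, and the number of arrays limits the rest.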

Other observations

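Gzmb, the granzyme B gene of cytotoxic lymphocytes, which was chosen after its values were seen, was not well above background on any control array and read -1.49, -1.55 and -0.86 in the arrays labelled Atg5f/f;Vav, at least 11.7-fold higher (limma adjusted p = 0.00547), with the control bound taken per array as the higher of the probe's own signal and the lowest signal well above background. The mast cell chymase gene Cma1 read 2.68, 1.52 and 3.39 in control against 1.29, 0.89 and -0.61, and was lower by -2.01 (SE 0.61, adjusted p = 0.0438). Ms4a2, the beta chain of the IgE receptor of mast cells and basophils and the gene next to Ms4a3 on chromosome 19, read -3.31, -4.06 and -3.26 against -0.99, -0.69 and -0.08, higher by 2.96 (SE 0.30, adjusted p = 0.00689), whereas Ms4a3 itself overlapped between groups.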
